A study of Rana pirica with 9 samples.

Results

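The pituitary hormone precursor genes pomc, prl.1, gh1, gh2 and cga were followed in the brains of Rana pirica tadpoles kept with or without salamander larvae, which prey on them. The 5 genes were found by symbol among 6485 genes with a single symbol in the platform annotation, after the endings that mark gene copies (.L, .S) were dropped. They were represented by 9 of the 15491 probe sets tested: pomc by 2, prl.1 by 1, gh1 by 3, gh2 by 1 and cga by 2. All tadpoles had not yet grown hind limbs, and each sample pooled 10 brains. The control group had 6 samples, from tadpoles kept for 8 days without predators, and the exposed group had 3, from tadpoles kept for 8 days with larval salamanders. The sources used here give no strain, genotype or age. The labels call the samples biological replicates and do not say from how many tanks they came, so p-values measure only the spread between these samples. The labelled tissue is brain, and the labels do not say whether the pituitary was kept with it.

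The anterior and intermediate lobes of the pituitary make peptide hormones as precursors, under the control of releasing and inhibiting factors from the hypothalamus. The pomc precursor is cut into corticotropin, which drives corticosteroid release from the interrenal gland in stress, and into melanotropin, which darkens the skin of frogs and tadpoles. Growth hormone and prolactin are related proteins that regulate growth and, in amphibian larvae, water balance and larval growth. The cga product is the alpha subunit shared by thyrotropin and the gonadotropins. Thyrotropin drives the thyroid, whose hormone brings about metamorphosis.

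The arrays carry probes designed for the clawed frog Xenopus, whose species Xenopus laevis holds many genes as an L and an S copy from a genome doubling in its own lineage. The pomc.L and pomc.S probe sets (Xl.18423.1.S1_at and Xl.23599.1.S1_at) were thus designed on 2 Xenopus copies and hybridized here to Rana RNA. Here L and S name the Xenopus copy a probe set was designed on, and do not stand for copies of a Rana gene. For growth hormone there were 2 probe sets on gh1.L (Xl.21631.1.A1_at and Xl.21631.1.S1_at), 1 on gh1.S (Xl.587.1.S1_at) and 1 on gh2.S (Xl.588.1.S1_at). Prolactin had a single probe set on prl.1.L (Xl.18000.1.S1_at), and cga had 2 on cga.S (Xl.23618.1.A1_at and Xl.23618.1.S1_at). Probe sequences, genome positions and the strand that each probe set targets were not used here.

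Every value is a log2 signal relative to the median control array, so that the control median of each probe set is 0 and only differences between groups can be read. No level of any hormone transcript is known, and whether pituitary cells contributed RNA to a sample could not be read from its markers. In pooled tissue, fewer cells of a type and less RNA per cell cannot be told apart. The fine rounding steps of some values mark a signal under 256, either of the array itself or of the control median subtracted from it. Such marks were absent from all 9 arrays for pomc.S, gh2.S and the cga.S probe set Xl.23618.1.S1_at. They were present on 7 arrays for pomc.L, on 5 and 6 for the gh1.L probe sets Xl.21631.1.A1_at and Xl.21631.1.S1_at, on 4 for prl.1.L and for cga.S Xl.23618.1.A1_at, and on 3 for gh1.S. In all, 6 of the 9 probe sets were marked as weak on 3 or more arrays, against 37.0% of all probe sets tested, and weak signals can escape the mark.

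The arrays as a whole limit what each named probe set says. Deviations from the group means of different probe sets of 1 gene correlated at a median of 0.00062 over 4219 pairs, and both probe sets differed in one direction in 49.9% of pairs. Among the manufacturer's own control probe sets, those for the 3 regions of beta actin correlated at -0.568 to 0.484, those for Gapd at 0.365 to 0.647, those for a1Act at -0.881 to 0.664 and those for a3Act at -0.46 to 0.202. Those of the Dap spike-in RNA reached 0.847 to 0.975 and those of the Lys spike-in RNA 0.222 to 0.636. Whether the probe sets named here report the Rana transcripts of these genes was not tested. Poly-A spike-in RNAs separated controls 2, 3 and 4 and salamander 1 and 2, with means of 1.27 to 1.69, from controls 1, 5 and 6 and salamander 3, with means of -2.25 to -1.76. Both sets held both groups, but every difference within the low set rests on salamander array 3 as its only salamander array. Values within each set stand below beside the results they touch.

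No hormone precursor probe set passed the test of exposed tadpoles against controls after adjustment over all probe sets. Limma called 0 of the 9, as it called 0 of all 15491 (0%), and an ordinary linear model called none either. The largest difference was in pomc.S, at -1.90 on the log2 scale for exposed tadpoles minus controls, and the next in a gh1.L probe set, at 0.86. At an unadjusted p under 0.05 there was 1 member, pomc.S, against 798 probe sets or 5.15% of all. The salamander arrays lay wholly outside the control range in 1 member, gh1.L Xl.21631.1.A1_at, against 361 probe sets or 2.33% of all. With 5 differences positive and 4 negative, the median over the members was 0.0336, beside 0.0016 over all probe sets.

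**Figure D1:**
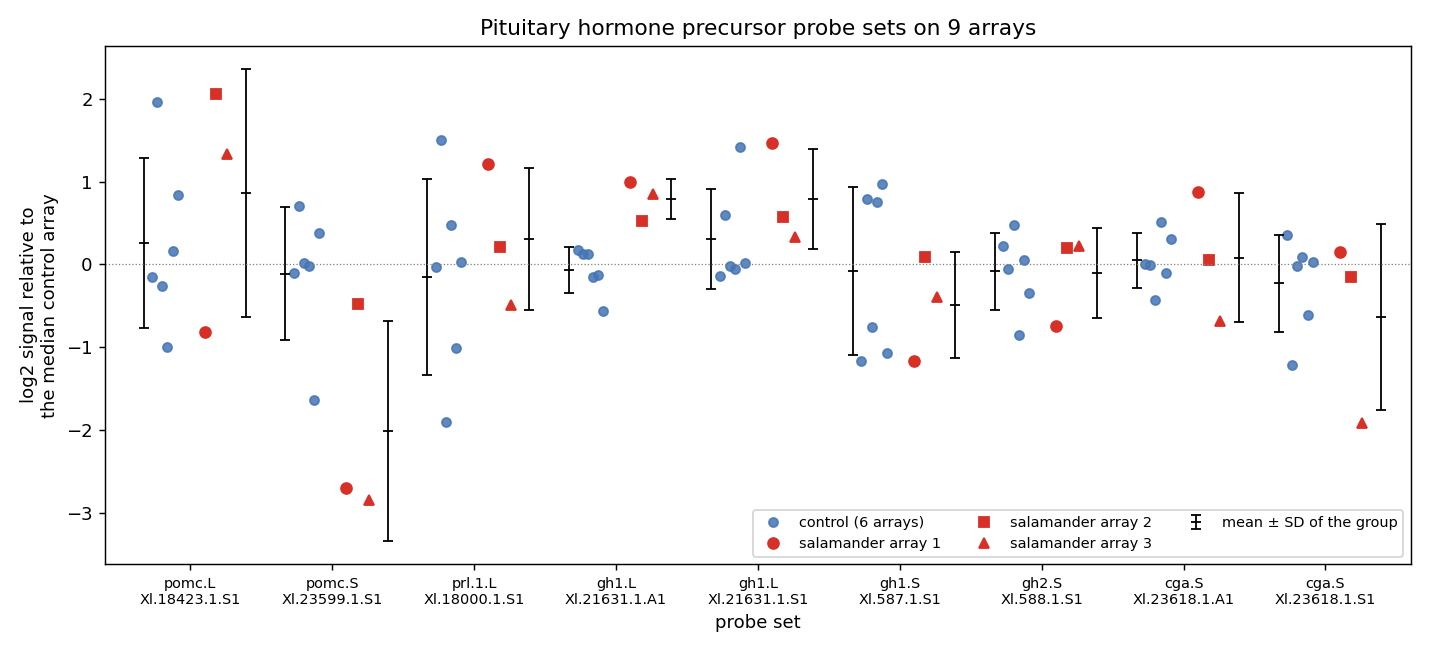
Log2 signal relative to the median control array (vertical axis) of the 9 hormone precursor probe sets, with controls as blue circles, the 3 salamander arrays as red symbols and black bars for mean ± SD of each group. Salamander arrays 1 and 3 lie below all controls in pomc.S at -2.70 and -2.85, and all 3 salamander arrays lie above all controls in gh1.L Xl.21631.1.A1.

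In pomc, the corticotropin and melanotropin precursor, the probe sets designed on the 2 Xenopus copies gave differences of opposite sign. For pomc.S, control arrays 1 to 6 read -0.11, 0.70, 0.02, -0.02, -1.64 and 0.38, and salamander arrays 1 to 3 read -2.70, -0.48 and -2.85. Salamander arrays 1 and 3 were below every control, whereas salamander array 2 stood within the control range, above control array 5. The group means were -2.01 ± 1.33 (SD, n = 3) with salamander larvae and -0.11 ± 0.81 (SD, n = 6) without. The difference of -1.90 (SE 0.66, 95% confidence interval -3.33 to -0.47) corresponds to a signal 3.73-fold lower. In limma its unadjusted p was 0.0138, rank 246 of all probe sets, and its adjusted p was 0.865. The exact two-sided permutation test over the 9 arrays gave p = 0.0238, and 0.9385 after adjustment over all probe sets. Within the arrays of high spike-ins the difference was -1.82, and within those of low spike-ins, where salamander array 3 stood alone, it was -2.40. It was -2.66 without salamander array 2, -1.55 without salamander array 1, -1.48 without salamander array 3 and -2.20 without control array 5. Without salamander array 1 or 3 the 95% confidence interval included 0, with upper bounds of 0.135 and 0.18. The interval within the high spike-in arrays, -3.72 to 0.07, included 0 too. Limma adjusted p-values ran from 0.672 to 0.977 over all arrays left out in turn.

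For pomc.L the salamander arrays read -0.81, 2.06 and 1.33, and the controls ran from -0.99 to 1.96. Salamander array 1 lay near the lowest control and salamander array 2 above the highest, so the groups overlapped widely. The difference was 0.60 (95% confidence interval -1.03 to 2.23), with a limma adjusted p of 0.988. It was -0.00041 without salamander array 2 and 1.44 without salamander array 1, and 0.39 and 1.05 within the high and low spike-in arrays.

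The 2 pomc probe sets were therefore compared with each other on each array. The value of pomc.L minus that of pomc.S was -0.05, 1.26, -0.28, -0.97, 1.79 and 0.46 on control arrays 1 to 6, and 1.88, 2.54 and 4.18 on salamander arrays 1 to 3. All salamander arrays exceeded all controls in this contrast, by a margin of under 0.1 between salamander array 1 and control array 5. The pomc.S values given above are part of the contrast, so its lack of overlap is not separate from their low readings. Its other part, pomc.L, was marked as weak on 4 of the 6 control and all 3 salamander arrays. The group difference in the contrast was 2.50 (SE 0.85, 95% confidence interval 0.70 to 4.30). The exact two-sided permutation p of 0.0119 is the smallest that the 84 ways to choose 3 of 9 arrays allow. Over all 4219 pairs of probe sets of 1 gene, limma gave it an adjusted p of 0.773 and called 0 pairs (0%). The groups did not overlap in 3.2% of these pairs, and 5.81% had an unadjusted p under 0.05. The contrast was 2.21 within the high spike-in arrays, 3.45 within the low ones and 1.84 to 2.99 with 1 array left out. Its 95% confidence interval included 0 within the high spike-in arrays (-0.22 to 4.64) and without salamander array 3 (-0.19 to 3.88). The deviations of the 2 probe sets from their group means correlated at 0.522 over the 9 arrays, beside a median of 0.00062 over all 4219 pairs. Between member probe sets of different genes such correlations ran from -0.864 to 0.662.

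**Figure D2:**
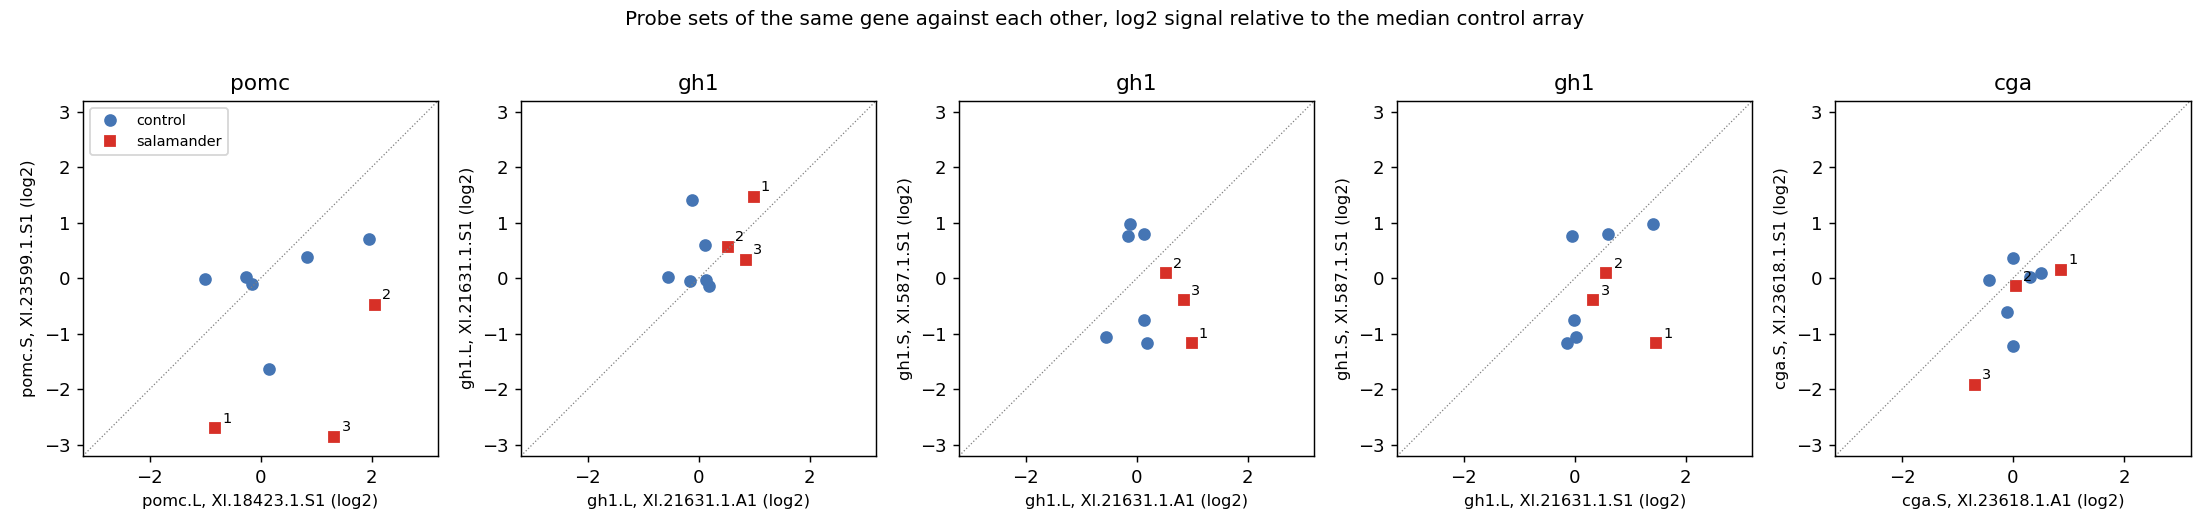
Each panel sets 2 probe sets of the same gene against each other over the 9 arrays, on the log2 scale relative to the median control array, with controls in blue, salamander arrays numbered in red and equal values on the dotted line. In the pomc panel the salamander arrays lie 1.88 to 4.18 below the line, and in the cga panel both probe sets are lowest on salamander array 3.

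Prolactin, measured by prl.1.L alone, varied among replicates more than it differed between groups. Its controls ran from -1.90 to 1.51, and the salamander arrays read 1.22, 0.21 and -0.49. All 3 salamander arrays thus fell inside the control range. The difference was 0.47 (SE 0.71, 95% confidence interval -1.08 to 2.01), with a limma adjusted p of 0.992. The pooled SD between replicates was 1.10, above the median of 0.964 over all probe sets, and the interval leaves room for a 4.04-fold higher or a signal at 0.472 of the control level. Within the high spike-in arrays the difference was 0.69, and within the low ones -0.16. It was 0.013 without salamander array 1, 0.12 without control array 3 and 0.87 without salamander array 3.

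The growth hormone probe sets gave no common direction. For gh1.L Xl.21631.1.A1_at the controls read 0.18, 0.12, 0.13, -0.16, -0.12 and -0.56 and the salamander arrays 0.99, 0.52 and 0.85. All 3 salamander arrays lay above all 6 controls, and the replicates were close together. The group means were 0.79 ± 0.24 (SD, n = 3) and -0.07 ± 0.28 (SD, n = 6), and the pooled replicate SD of 0.269 was lower than in all but 2.2% of probe sets. The difference was 0.86 (SE 0.40, 95% confidence interval -0.02 to 1.73), a signal 1.81-fold higher. Limma gave an unadjusted p of 0.0542 and an adjusted p of 0.945, after drawing this small variance toward that of the other probe sets. Without that moderation the interval was 0.41 to 1.31 and the adjusted p 0.747. The exact two-sided permutation p was 0.0119, again the smallest possible, and 0.9385 after adjustment over all probe sets. It rests on the same lack of overlap between the groups. The difference stayed between 0.75 and 0.99 with 1 array left out, and was 0.72 and 1.02 within the high and low spike-in arrays. Signals were marked as weak on 3 of the 6 control and 2 of the 3 salamander arrays.

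The other gh1.L probe set, Xl.21631.1.S1_at, read 1.47, 0.57 and 0.34 on the salamander arrays, with controls from -0.14 to 1.42. Salamander array 1 was just above the highest control, array 5, and the other two lay within the control range. The difference was 0.49 (95% confidence interval -0.60 to 1.58), and the direct contrast between the 2 gh1.L probe sets was 0.37 (95% confidence interval -1.22 to 1.96). The difference was 0.15 without salamander array 1 and 0.72 without salamander array 3, and 0.85 and -0.098 within the high and low spike-in arrays. With 1 array left out the contrast lay between 0.11 (salamander 3 left out) and 0.61 (salamander 1 left out). It was -0.12 and 1.12 within the high and low spike-in arrays. Their deviations from group means correlated at 0.14. Both had a positive difference, the only pair of the 5 within a member gene whose signs matched. Over all pairs of probe sets of 1 gene the signs matched in 49.9%. The gh1 pairs share probe sets, so the 5 pairs are not separate readings.

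The gh1.S probe set pointed the other way. Its salamander arrays read -1.17, 0.09 and -0.39, and its controls fell apart into values from -1.17 to -0.76 on arrays 1, 3 and 6 and from 0.76 to 0.98 on arrays 2, 4 and 5. The difference of -0.41 (95% confidence interval -1.79 to 0.96) was well inside this spread. It was -0.70 when salamander array 2 was left out and -0.070 when salamander array 1 was, and it was -0.80 and 0.030 within the high and low spike-in arrays. Its contrast with Xl.21631.1.A1_at was 1.27 (95% confidence interval -0.49 to 3.02) and with Xl.21631.1.S1_at 0.90 (95% confidence interval -0.81 to 2.61), with limma adjusted p-values of 0.908 and 0.946. With 1 array left out the former contrast ran from 0.82 to 1.69, and it was 1.53 and 0.99 within the high and low spike-in arrays. The latter was 0.22 without salamander array 1 and 1.30 without salamander array 2, and 1.65 and -0.13 within the high and low spike-in arrays. The opposite signs of the gh1.L and gh1.S probe sets thus did not exceed the replicate error.

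For gh2, the second growth hormone gene, gh2.S read -0.74, 0.20 and 0.22 on the salamander arrays and -0.85 to 0.47 on the controls. The ranges of the groups overlapped almost wholly, with a difference of -0.02 (95% confidence interval -1.03 to 0.98). This interval excludes a rise of 2-fold in this probe set's signal and reaches just past a fall of 2-fold. The difference was -0.12 and 0.24 within the high and low spike-in arrays, and -0.18 without salamander array 3 and 0.29 without salamander array 1. All 9 values of gh2.S were free of the weak mark.

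The glycoprotein hormone subunit cga had 2 probe sets, with the lowest value of each on salamander array 3. Xl.23618.1.A1_at read 0.87, 0.06 and -0.68 on the salamander arrays, and Xl.23618.1.S1_at read 0.16, -0.15 and -1.92. In both, salamander array 1 was the highest of the 3 and salamander array 3 the lowest, below all controls. The controls ran from -0.43 to 0.51 and from -1.22 to 0.36. The differences were 0.03 (95% confidence interval -0.97 to 1.04) and -0.41 (95% confidence interval -1.64 to 0.83), with limma adjusted p-values of 0.998 and 0.989. The SD of the salamander arrays was 0.78 against 0.33 in the controls for the former and 1.12 against 0.58 for the latter. Without salamander array 3 the differences were 0.42 and 0.23, and without salamander array 1 they were -0.36 and -0.80. Within the high spike-in arrays they were 0.44 and 0.39, and within the low ones, where array 3 was the only salamander array, -0.75 and -1.84. The deviations of both probe sets correlated at 0.663, yet control array 2 read -0.0017 in the former and -1.22 in the latter. Deviations of prl.1.L and Xl.23618.1.A1_at, of different genes, correlated as highly, at 0.662. The contrast between the 2 cga probe sets was 0.44 (95% confidence interval -1.13 to 2.01). This contrast was 0.18 when salamander array 3 was left out and 0.70 when salamander array 2 was, and it was 0.049 and 1.09 within the high and low spike-in arrays.

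**Figure D3:**
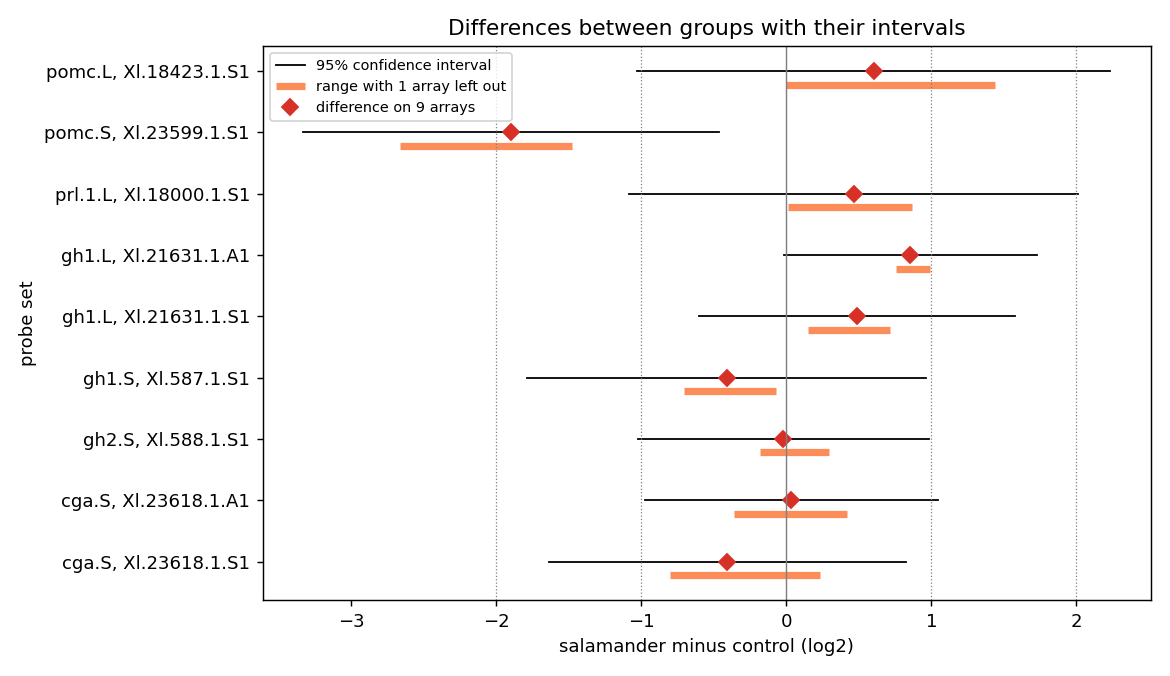
Difference salamander minus control on the log2 scale (horizontal axis) for each hormone precursor probe set, with its 95% confidence interval as a black line and, below it, the range of the difference with 1 array left out. The interval of pomc.S alone lies on one side of 0, before any adjustment, and dotted lines mark differences of 2-fold and 4-fold.

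The intervals state how much the signal of each probe set could have differed. Whether that signal follows the amount of a Rana transcript was not tested. A difference of 4-fold either way was outside the interval in 6 of the 9 members, all but pomc.L, pomc.S and prl.1.L, and over all probe sets in 54.6%. Among those 6, both gh1.L probe sets, gh1.S and cga.S Xl.23618.1.A1_at were marked as weak on 3 or more arrays. A difference of 2-fold either way was outside the interval in 0 members and in 2.78% of all probe sets. A 2-fold rise was outside it for pomc.S, gh1.S, gh2.S and cga.S Xl.23618.1.S1_at. A 2-fold fall was outside it for both gh1.L probe sets and for cga.S Xl.23618.1.A1_at. For gh1.S, gh2.S and cga.S Xl.23618.1.A1_at the bounds, at 0.96, 0.98 and -0.97, were close to 2-fold (1 or -1). The intervals are not adjusted for the number of probe sets, and the share of all probe sets was not counted for a single direction.

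**Figure D4:**
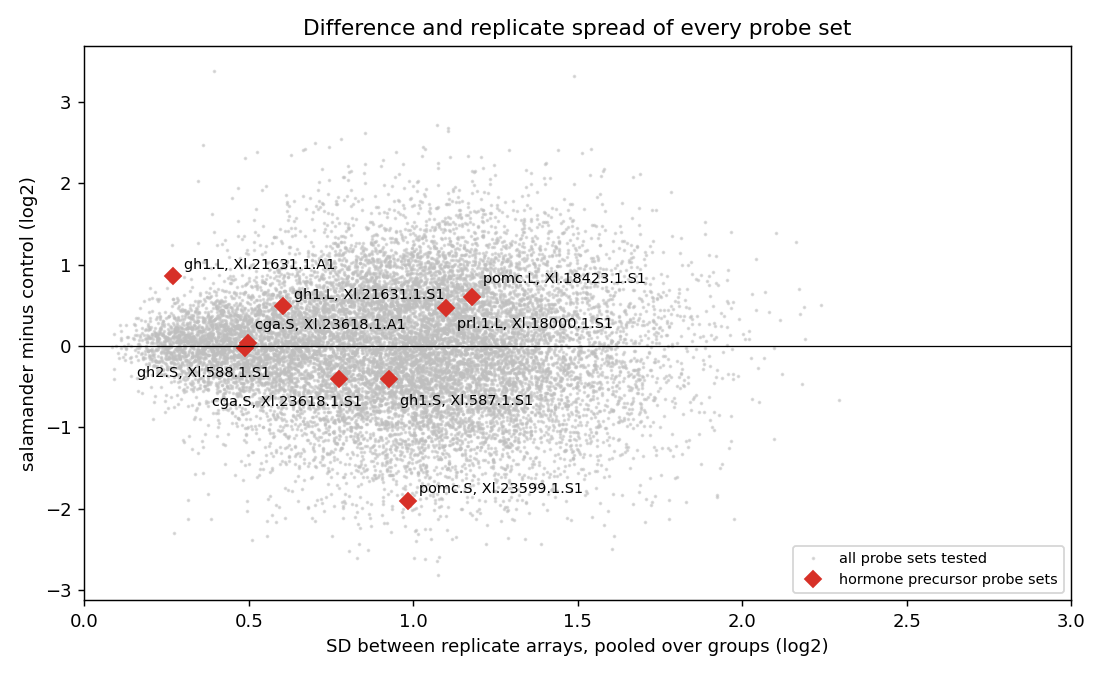
Each grey point is a probe set, with the SD between replicate arrays pooled over both groups on the horizontal axis and the difference salamander minus control on the vertical axis, both on the log2 scale. The hormone precursor probe sets in red lie within the cloud, with gh1.L Xl.21631.1.A1 at its low-spread edge at an SD of 0.269 and pomc.S among the lower differences at -1.90.

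Seen by array, 11 of the 27 salamander values of the members, or 40.7%, lay outside the control range, against 28.3% over all probe sets. On salamander array 1, 3 of the 9 members were above all controls and 2 below. On array 2 these numbers were 2 and 0, and on array 3 they were 1 and 3. Correlations among the members were as often positive as negative. Over 36 pairs of member probe sets the deviations from group means correlated at a median of 0.006, with 18 pairs positive, beside a median of -0.002 over all pairs of probe sets. The correlations ran from 0.663, for the 2 cga probe sets, to -0.864, for gh2.S with cga.S Xl.23618.1.A1_at. All rest on 9 shared arrays.

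The probe sets whose values over the 9 arrays were most like each member's were sought among 9295 with 1 symbol, with the 5 hormone precursor genes left out. For pomc.S it was the gamma-tubulin complex gene tubgcp3, at a Pearson correlation of 0.921 (Spearman 0.683). For pomc.L it was cwc15, a spliceosome component, at 0.976, and for prl.1.L lsm14a, an RNA-binding protein gene, at 0.914. The keratin krt55 was most like gh1.L Xl.21631.1.A1_at, at 0.967 (Spearman 1.0), and the glycosylation gene alg5 most like the other gh1.L probe set, at 0.954. The cohesin loader nipbl followed gh1.S at 0.955, the cell junction gene vezt followed gh2.S at 0.962, and the cyclin gene ccnt1 and the coactivator gene ncoa5 followed the cga.S probe sets Xl.23618.1.A1_at and Xl.23618.1.S1_at at 0.921 and 0.927. Each is the highest of many correlations over 9 points. With the 5 member genes left out, the search could hardly have found another hormone gene of the pituitary.

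Other genes of the pituitary axis, in lists ordered by role, were measured by 85 probe sets for 56 of 145 listed genes. Limma called 0 of them, as it called 0% of all, and 3 had an unadjusted p under 0.05, or 3.53% against 5.15% of all. The groups did not overlap in 3, also 3.53%, against 2.33% of all. Differences were positive in 42 and negative in 43, with a median of -0.0117.

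Transcription factors that set up pituitary cell lineages had 13 positive and 9 negative differences among 22 probe sets, with a median of 0.0548. The lineage factor pitx1, which activates the pomc promoter in mammals, read 1.91, 1.06 and 0.88 on the salamander arrays and at most 0.30 on the controls. Its difference was 1.27 (95% confidence interval 0.36 to 2.18) with a limma adjusted p of 0.812. For neurod1, a corticotrope factor in mammals, the salamander arrays at 1.20 to 1.47 also lay above all controls, which spread from -2.33 to 1.05. Its difference of 1.50 had an interval from -0.04 to 3.05. The brain and pituitary factor otx1 was at 0.96 (95% confidence interval 0.02 to 1.89, limma adjusted p 0.945), and its control array 5, at 0.77, stood away from the rest.

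Hypothalamic factors had 5 positive and 4 negative differences among 9 probe sets. Those for trh, whose peptide releases thyrotropin in mammals and melanotropin in amphibians, disagreed, at 0.78, -0.84 and -0.35. Their receptors had 4 positive and 5 negative differences. The dopamine receptor drd2, through which dopamine restrains prolactin and melanotropin release, stood at -1.45 (95% confidence interval -2.55 to -0.36) in drd2.L, with salamander arrays at -1.15, -2.64 and -0.67 below all controls. Its limma adjusted p was 0.865, and the 2 drd2.S probe sets gave -0.36 and 0.95. The receptor trhr was at -0.78 (95% confidence interval -2.34 to 0.78).

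Prohormone processing and granule genes had 14 negative and 6 positive differences among 20 probe sets, with a median of -0.198. The proprotein convertase pcsk7 was at -0.83 (95% confidence interval -1.77 to 0.12) in one probe set and -0.24 in the other. The granule protein chga had both probe sets negative, at -0.87 (95% confidence interval -2.08 to 0.35) and -1.12 (95% confidence interval -3.04 to 0.79). These were marked as weak on 6 and 2 arrays, and 3 of the 20 probe sets of this list had at most 1 weak mark. The carboxypeptidase cpe, which trims peptide hormones, was at -1.14 in one probe set and 0.51 in the other. The convertase pcsk2, which cuts pomc to melanotropin, was at 0.40 in its only probe set. The luteinizing hormone subunit lhb, the only other pituitary hormone gene measured of those listed, stood at -0.22 (95% confidence interval -1.56 to 1.12), and the peptide gene nmb at -0.47 (95% confidence interval -1.66 to 0.71).

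Hormone receptors and target genes had 14 positive and 9 negative differences among 23 probe sets, with a median of 0.278. The growth hormone receptor, ghr.L, was at 0.95 and the prolactin receptor, prlr, at 1.21 for prlr.L and -0.38 for prlr.S. The steroid enzyme gene cyp17a1 was at 1.01 and 1.17 in its 2 probe sets, and the insulin-like growth factor receptor igf1r at -1.04, 0.28 and 0.04, the first of which had control array 1 far below the rest at -1.93. The corticosteroid receptor nr3c1 had probe sets at 0.77, -0.01 and -0.70. In this list limma adjusted p-values were 0.95 or higher.

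**Figure D5:**
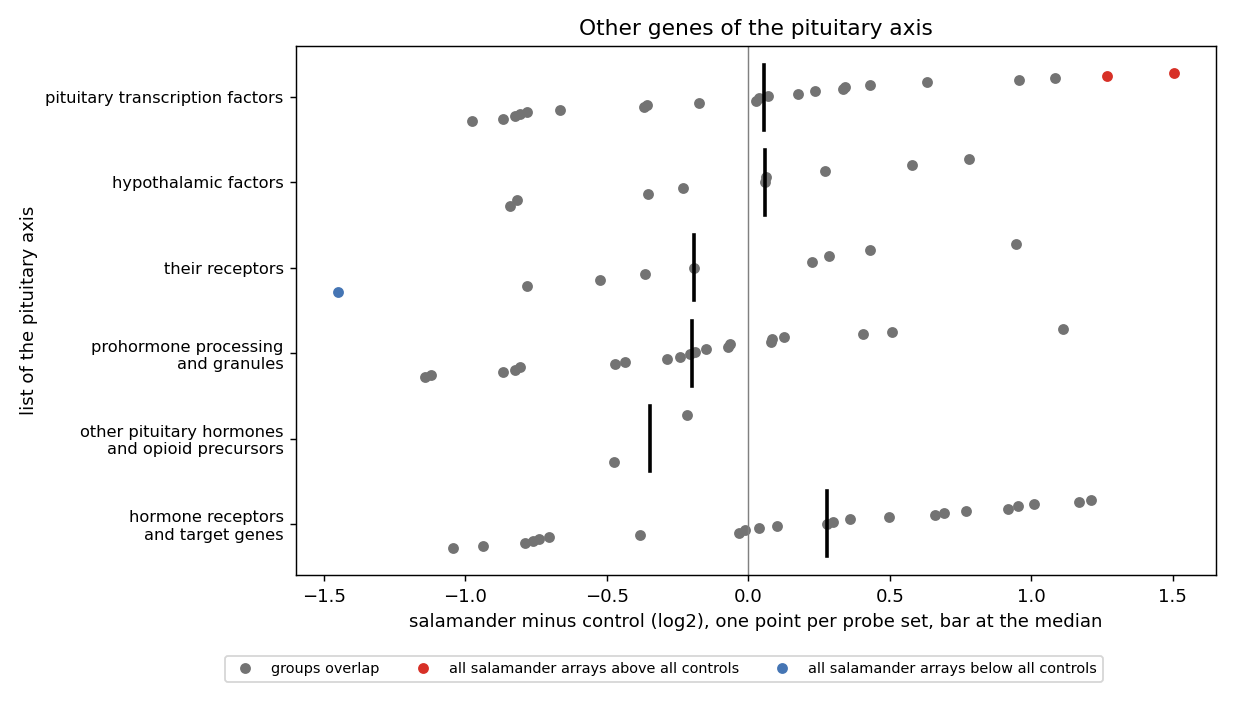
Difference salamander minus control on the log2 scale for each probe set of the pituitary axis lists, with a black bar at the list's median and colour for probe sets whose groups do not overlap. Points fall on both sides of 0 in each list except the pair of other hormone genes, and the 3 coloured points are neurod1 at 1.50, pitx1 at 1.27 and drd2.L at -1.45.

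Markers of blood, muscle and skin, which may cling to brains on dissection, gave 0 calls. The mean over 23 skeletal muscle probe sets, for 11 genes, was 0.226 to 0.577 on the salamander arrays and -0.216 to 0.184 on the controls. The groups thus did not overlap in this mean, and how often other lists of this size would do so was not tested. The list was chosen with earlier results of these data known, and 9 of its 23 probe sets had at most 1 weak mark. Of the 23, 18 had a positive difference (median 0.448), beside 7759 of all 15491 probe sets (median 0.0016). The mean over 13 erythrocyte probe sets ran from -0.703 to 0.137 and from -0.491 to 0.287, and that over 11 skin and epithelium probe sets from -0.745 to 0.404 and from -0.713 to 0.528, so that these overlapped. Their part in the hormone gene differences was not tested.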

How the data were processed

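RNA from pooled tadpole brains was hybridized to one-colour Affymetrix Xenopus arrays, 6 control and 3 salamander. Signals came from MAS5, per the submitters' processing notes; the sources used here give no version. The deposited values are log2 signals centred by the authors on the control median of each of 15611 probe sets (largest departure 9.5e-07). The base and centring were read from the values, and the scaling between arrays stays unknown. There were 0 columns of other samples.

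Names came from the platform annotation: of the tested probe sets 9304 had 1 symbol, 195 several and 5992 were unnamed here. The contrast salamander minus control was fitted with limma 3.58.1 in R 4.3.3 (lmFit and eBayes, no trend). The fit took the 15491 probe sets other than 120 Affymetrix controls. It was run first on simulated data with the replicate SD of these probe sets. There it called 0 of 50 changes of log2 size 1 and 12 of 50 of size 2. For sizes 4 and 6 it called 31 and 45 of 50, with 3 false calls in all. All sizes were simulated together under the same adjustment, where calls of large changes ease those of smaller ones. The real data had 0 calls, so the share called at size 2 may be too high for them. The absence of calls thus says little about differences as small as those of the members. P-values were adjusted by Benjamini-Hochberg and called under 0.05. Pairs of probe sets were fitted as per-array differences. Exact permutation tests used all 84 splits. Figures used matplotlib 3.10.9 under Python 3.11.15. Array number limits the precision.

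Named were all member probe sets, the named probe set most like each, and up to 3 per role list by smallest p. The genes pcsk2, ghr and prlr and further probe sets of named genes were added after their values were seen. Members and lists were chosen with earlier results of these data known. Same-numbered control and salamander arrays deviated together at correlations of 0.0059, 0.0159 and -0.00485, which shows no pairing by number but cannot exclude it. The control most like salamander arrays 1, 2 and 3 was control 3, 2 and 5. Alternatives were quantile normalization, array centring, array weights, spike-in level as a term, a replicate block, no moderation, bright probe sets only (7316 with at most 1 weak mark) and each array left out. Those for pairs of probe sets were chosen after seeing the data.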

Additional observations from a re-analysis of the deposited data

Results flagged for a closer look

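In the control group of 6 arrays, 1 array stood apart from the rest in 3 of 34 sets of values examined. Chance flags about 1 in 20. For pomc.S, control array 5 read -1.64 and the nearest other control -0.105. For otx1.L, control array 5 read 0.771 and the nearest other control 0.102. For the igf1r.S probe set at -1.04, control array 1 read -1.93 and the nearest other control -0.241.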

How the results depend on the processing

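Under the alternatives, 267 of 289 values for the hormone genes kept their direction, 22 turned and 0 passed an adjusted p under 0.05 in limma, the smallest being 0.561. Part of the kept directions was fixed beforehand. The exact permutation test, the fit without moderation and the fit on bright probe sets alone reuse the same difference. Array medians lay between -0.0084 and 0.0069 and array weights between 0.909 and 1.08, so centring and weighting could hardly turn a direction. The values also include gene means and contrasts formed from the same probe sets. For pomc and cga, the median of 2 probe sets, a further alternative, equals their mean. The numbers of probe sets called and of other pituitary axis genes called stayed at 0 in all 36 counts, both numbers being counted in each alternative setting. They stayed so with 1 array left out too (0 to 0). The arrays with low spike-ins held only salamander array 3 of the exposed group. On them alone, prl.1.L turned to -0.16, gh1.L Xl.21631.1.S1_at to -0.098, gh1.S to 0.030, gh2.S to 0.24 and cga.S Xl.23618.1.A1_at to -0.75. The contrast of gh1.L Xl.21631.1.S1_at with gh1.S turned there to -0.13. On those with high spike-ins alone, cga.S Xl.23618.1.S1_at turned to 0.39, the mean of the cga probe sets to 0.41 and the contrast of the gh1.L probe sets to -0.12. With spike-in level as a term, gh2.S was 0.016 and cga.S Xl.23618.1.A1_at -0.020, and quantile normalization gave gh2.S 0.0088. With a replicate block, whose numbers showed no pairing of the samples, pomc.S was -2.21, the contrast of the gh1.L probe sets turned to -0.0028, and 0 probe sets were called. With 1 array left out, pomc.L ran from -0.00041 to 1.44, gh2.S from -0.18 to 0.29, cga.S Xl.23618.1.A1_at from -0.36 to 0.42, cga.S Xl.23618.1.S1_at from -0.80 to 0.23 and the cga mean from -0.58 to 0.32. The pomc mean, -0.65, ran from -1.33 to -0.058 and the gh1 mean, 0.31, from 0.19 to 0.45. The cause was not tested. Signal over background is unknown beyond the weak marks.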
